A study of Mus musculus with 8 samples.

Results

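The 10 genes described here belong to the mitochondrial death pathway, also called the intrinsic pathway, and were read in RNA sequencing of whole mouse neuroblastomas: the guardian genes Bcl2, Bcl2l1, Bcl2l2 and Mcl1, the effector genes Bax, Bak1 and Bok, the apoptosome genes Apaf1 and Casp9, and the inhibitor gene Xiap. They were taken by symbol from the Ensembl identifiers of the deposited table, and all 10 were found among its 17488 genes. In the treated group 4 mice received 2 doses of 5 mg/kg panobinostat, 24 h apart, and 4 mice received vehicle. Panobinostat is a hydroxamate that inhibits histone deacetylases (HDACs). All 8 animals were homozygous TH-MYCN mice, in which the tyrosine hydroxylase promoter directs human MYCN to cells of the sympathetic lineage. They entered treatment at about 6 weeks of age, with tumours of 200 to 300 mm3, and tumours were taken 4 h after the second dose. Each library came from 1 animal and held tumour and stroma cells together, so fewer cells of a type and less RNA per cell cannot be told apart.

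Guardian proteins hold cells alive by binding BAX, BAK and the BH3-only proteins that carry death signals. When they are overcome, BAX and BAK open the outer mitochondrial membrane and release cytochrome c. APAF1 then assembles into the apoptosome, which activates caspase-9, and XIAP restrains that caspase. Neuroblastomas are known to differ in which guardian they lean on, with BCL2 and MCL1 the ones most often described in human tumours.

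With panobinostat the apoptosome genes Casp9 and Apaf1 were higher, by 1.82-fold and 1.64-fold, and the effector gene Bok and the guardian gene Bcl2l1 were lower, at 27.9% and 60.8% of the vehicle level. Bcl2 and Bak1 rose by smaller amounts (1.35-fold and 1.36-fold), Xiap and Bcl2l2 fell to 74.0% and 81.6%, and Mcl1 and Bax made no call. In all 8 of the 10 genes changed, 4 higher and 4 lower, at a Benjamini-Hochberg adjusted p under 0.05 in limma. Over all 16157 genes tested the share called was 63.7%, with 31.2% higher and 32.4% lower, so the share among the 10 genes tells little by itself. The median size of the change, regardless of sign, was 0.44 on the log2 scale for the 10 genes and 0.71 for all tested genes. The groups did not overlap for 6 of the 10 genes, 3 higher and 3 lower, against 59.7% of tested genes (28.5% higher and 31.2% lower). In a test against a 1.5-fold change only Bok passed, where 30.9% of tested genes did.

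Over the listed genes the panobinostat libraries summed to 18664066 to 22235545 reads and the vehicle libraries to 22055658 to 23830026, and 1 CPM (a read count scaled to the library's effective size) stood for 19.3 to 22.6 reads. The lowest count of any of the 10 genes in a library was 262 reads, for Bok with panobinostat. Levels of several lists of cell type markers differed between groups, which may reflect cell numbers or RNA per cell. The summed level of 14 noradrenergic tumour markers was 1584 to 2135 CPM with panobinostat and 3640 to 4341 CPM with vehicle, with 8 lower and none higher. Macrophage markers were higher for 10 of 12 genes (summed level 3142 to 5600 CPM with panobinostat and 668 to 1298 CPM with vehicle), and fibroblast and mural markers for 12 of 12 (9378 to 16902 and 1675 to 5215 CPM). Adipocyte markers were higher for 8 of 8 (1114 to 1699 and 27.5 to 692 CPM), and Schwann cell markers for 6 of 10 (228 to 578 and 265 to 396 CPM), with 1 lower. Panobinostat libraries also held reads of neighbouring organs: adrenal cortex markers summed to 46.7 to 2822 CPM there and to at most 23.8 CPM with vehicle, and liver markers to 177 to 9413 and 23.1 to 81.4 CPM. Pancreas markers summed to 737 and 4536 CPM in panobinostat libraries 2 and 4, and to at most 19.8 CPM in the others of that group. Lymphocyte markers summed to 32.6 to 57.2 CPM with panobinostat and 14.4 to 67.7 CPM with vehicle, and 3 of the 12 passed the filter (1 higher, 1 lower). Of the other lists, endothelial markers were higher for 2 of 10 (360 to 576 and 109 to 584 CPM), neutrophil markers for 1 of 3 tested (8.61 to 20.3 and 2.89 to 11.7 CPM), and erythroid markers for none of 5 tested (461 to 9635 and 2359 to 3382 CPM). Kidney markers summed to 798 CPM in panobinostat library 3 and to at most 14.3 CPM in every other library. Apart from Cyp11b2 of the adrenal cortex list, at 0 reads in every vehicle library, no listed marker with values was at 0 throughout a group. Whether these shifts had a part in the changes of the 10 genes was not tested.

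**Figure D1:**
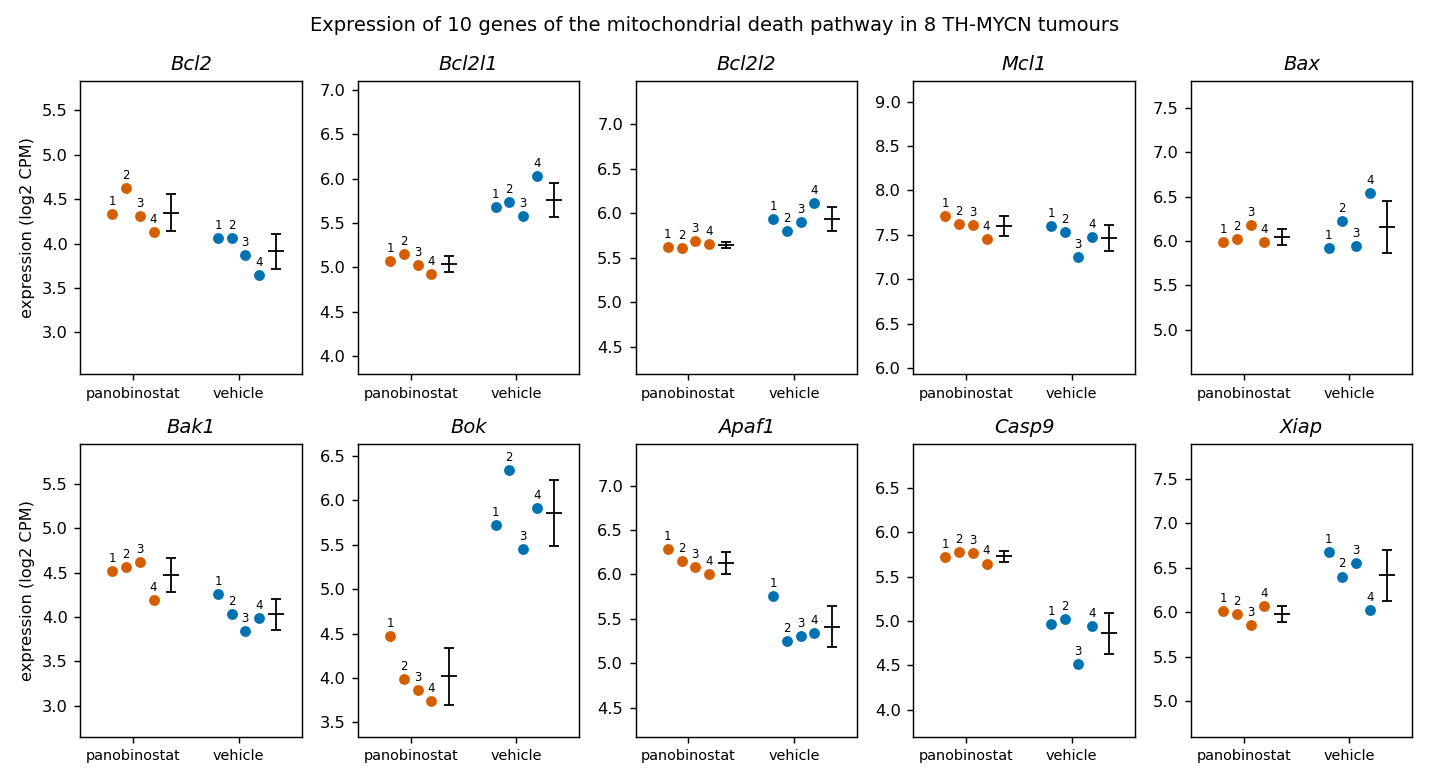
Expression of each gene in log2 CPM, with panobinostat libraries (orange) left of vehicle libraries (blue), library numbers above the points, and mean and SD as black bars (n = 4 each). Every panel spans the same number of log2 units, and the groups are clear of each other for Bcl2, Bcl2l1, Bcl2l2, Bok, Apaf1 and Casp9.

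The changes of Bok, Bcl2l1, Apaf1 and Casp9 kept their calls in every library left out and under every scaling tried, and the 250 bases before a start site of each are shown for that reason. They are RefSeq sequences of GRCm38.p6, the assembly that mm10 names, read 5′ to 3′ on the gene's strand, with matches to any of the motifs searched in capitals. Bok lies on the plus strand (chr1:93685325-93685574), Bcl2l1 on the minus strand (chr2:152830718-152830967, one of 3 start sites), Apaf1 on the minus strand (chr10:91082744-91082993) and Casp9 on the plus strand (chr4:141793362-141793611).
Bok: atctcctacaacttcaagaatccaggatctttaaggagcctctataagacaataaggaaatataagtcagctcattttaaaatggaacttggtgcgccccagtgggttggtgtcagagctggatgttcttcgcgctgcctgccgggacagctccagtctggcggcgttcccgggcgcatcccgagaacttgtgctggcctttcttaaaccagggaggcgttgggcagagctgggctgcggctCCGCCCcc
Bcl2l1: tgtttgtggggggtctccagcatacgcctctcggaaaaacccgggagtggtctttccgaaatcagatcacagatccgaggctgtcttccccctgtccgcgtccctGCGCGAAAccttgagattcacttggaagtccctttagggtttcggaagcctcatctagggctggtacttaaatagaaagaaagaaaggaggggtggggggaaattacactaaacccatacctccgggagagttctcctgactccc
Apaf1: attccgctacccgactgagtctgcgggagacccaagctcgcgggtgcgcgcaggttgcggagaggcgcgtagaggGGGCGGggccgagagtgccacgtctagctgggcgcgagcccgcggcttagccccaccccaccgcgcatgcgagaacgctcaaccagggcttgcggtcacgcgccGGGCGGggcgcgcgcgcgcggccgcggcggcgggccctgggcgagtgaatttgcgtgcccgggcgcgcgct
Casp9: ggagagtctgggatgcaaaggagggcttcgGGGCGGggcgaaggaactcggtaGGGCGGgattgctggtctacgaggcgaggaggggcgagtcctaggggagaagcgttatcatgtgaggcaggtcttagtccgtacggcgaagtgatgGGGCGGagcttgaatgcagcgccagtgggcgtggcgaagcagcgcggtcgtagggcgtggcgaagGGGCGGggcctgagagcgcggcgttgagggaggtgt

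The motifs searched on both strands were the GC box GGGCGG, the palindromic E-box CACGTG bound by MYC and MAX, 4 forms of the E2F site (TTTCCCGC, TTTGGCGC, TTTGCCGC and TTTCGCGC) and the TATA box TATAAA. The capitals mark 4 GC boxes in the Casp9 window, 2 in that of Apaf1, 1 in that of Bok and 1 E2F site, TTTCGCGC on the other strand, in that of Bcl2l1. Over the 14 RefSeq windows of the 10 genes, 9 held a GC box, in 8 genes, against 32.7% of all 32817 windows of that length. The most in one window were 7, in that of Bcl2. The only E-box was in the Bax window (6.02% of all windows) and the only TATA box in 1 of 3 Xiap windows (12.4%). The only E2F site was in 1 of 3 Bcl2l1 windows, the one shown (1.86%). The other Bcl2l1 windows held no match to any motif. No match overlapped one of another motif. GC content was 75.6% for Apaf1, 66.0% for Casp9, 55.2% for Bok and 53.2% for the Bcl2l1 window shown, with a median of 52.4% over all windows. It was 48.4% and 47.6% in the Bcl2l1 windows not shown. These are matches of letters, given as a description of the windows.

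Among the guardians, Bcl2l1 encodes BCL-XL, and its reads also cover the short form BCL-XS, which gene-level values cannot separate. It measured 5.07, 5.15, 5.02 and 4.92 log2 CPM in panobinostat libraries 1 to 4 and 5.68, 5.74, 5.58 and 6.03 in vehicle libraries 1 to 4. All 4 panobinostat values lay below all 4 vehicle values. The log2 difference was -0.72 (SE 0.12, 95% interval -0.98 to -0.45, adjusted p = 6.01e-04, limma), from counts of 595 to 748 in panobinostat libraries and 1077 to 1379 in vehicle libraries. The gene lies on chromosome 2 (152780668 to 152831728, minus strand, GRCm38) with 9 annotated transcripts. Leaving out single libraries gave differences of -0.78 to -0.63, all past the threshold.

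Bcl2l2, which encodes BCL-W, a guardian described mainly in neurons and testis, was at 5.62, 5.61, 5.69 and 5.65 log2 CPM with panobinostat and at 5.94, 5.80, 5.90 and 6.11 with vehicle. The panobinostat libraries lay close together (SD 0.03) and below every vehicle library. The difference was -0.29 (SE 0.09, adjusted p = 0.0206, limma). The call was lost with libraries scaled to read totals (-0.17, adjusted p = 0.0995) and when panobinostat library 1 (adjusted p = 0.0513) or 2 (0.0581, limma) was left out. Without panobinostat libraries 3 and 4 together it was lost too (-0.32, adjusted p = 0.104). Gm20521, a gene annotated on the same strand that shares 594 bases of exon with Bcl2l2, had between 1 and 4 reads in panobinostat libraries and between 5 and 43 in vehicle libraries, beside 941 to 1100 and 1133 to 1465 for Bcl2l2.

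Bcl2 had the lowest level per length of the 10 genes. It measured 4.33, 4.63, 4.31 and 4.13 log2 CPM with panobinostat and 4.06, 4.07, 3.87 and 3.64 with vehicle, or 344 to 476 and 264 to 378 reads. The groups did not overlap, but panobinostat library 4 lay only slightly above vehicle libraries 1 and 2. The difference was 0.44 (SE 0.16, 95% interval 0.09 to 0.79, adjusted p = 0.0333, limma). This call was lost without panobinostat library 1, 2 or 3 or vehicle library 3 or 4 (adjusted p from 0.0596 to 0.103, limma). Median centring (0.32), trimmed mean centring (0.27), quantile normalization (0.18) and library weights (0.33) also ended it, and so did leaving out panobinostat libraries 3 and 4 together (0.57, adjusted p = 0.0597).

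Mcl1, a short-lived guardian that binds BAK and NOXA, was the most abundant of the guardians. Its levels were 7.71, 7.62, 7.61 and 7.45 log2 CPM with panobinostat and 7.59, 7.53, 7.25 and 7.48 with vehicle, and the groups overlapped. The difference of 0.14 (SE 0.10, adjusted p = 0.260, limma) had a 95% interval of -0.09 to 0.36. Quantile normalization (0.42, adjusted p = 0.00578) and scaling to read totals (0.25, adjusted p = 0.0446) each gave Mcl1 a call as higher, and its sign turned with trimmed mean centring (-0.031).

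The effectors moved apart. Bok, a BAX and BAK relative described as acting at the endoplasmic reticulum and outside guardian control, showed the largest change of the 10 genes. It measured 4.48, 3.99, 3.86 and 3.74 log2 CPM with panobinostat and 5.73, 6.34, 5.46 and 5.91 with vehicle. The closest libraries of the groups, panobinostat 1 and vehicle 3, were still almost 1 log2 unit apart. The mean was 4.02 ± 0.32 with panobinostat and 5.86 ± 0.37 with vehicle (SD, n = 4), a difference of -1.84 (SE 0.22, 95% interval -2.33 to -1.35, adjusted p = 8.58e-05, limma). Over the 22 alternatives it ran from -2.10 to -1.63 and kept its call in each, with -1.63 (adjusted p = 0.00243) without panobinostat libraries 3 and 4. Bok lies on chromosome 1 (93685660 to 93695764, plus strand).

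Bak1, which encodes BAK, resident in the outer mitochondrial membrane, was at 4.52, 4.56, 4.61 and 4.19 log2 CPM with panobinostat and at 4.26, 4.03, 3.85 and 3.99 with vehicle. Panobinostat library 4 lay below vehicle library 1, so the groups overlapped. The difference was 0.44 (SE 0.15, 95% interval 0.11 to 0.77, adjusted p = 0.0239, limma). It lost its call without any of panobinostat libraries 1, 2 and 3 or vehicle library 3 (adjusted p from 0.0538 to 0.0757, limma), with both ways of centring (0.32 and 0.28), with quantile normalization (0.22) and without panobinostat libraries 3 and 4 together (0.51, adjusted p = 0.0595). Ggnbp1, on the opposite strand, shares 437 bases of exon with Bak1 and had between 136 and 181 reads in panobinostat libraries and between 103 and 174 in vehicle libraries. Whether counting used strand is not given in the sources used here.

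Bax, which moves from the cytosol to mitochondria when activated and is a known p53 target, made no call. It measured 5.99, 6.02, 6.18 and 5.98 log2 CPM with panobinostat and 5.92, 6.23, 5.94 and 6.54 with vehicle. The vehicle libraries spread over a wider range and enclosed the panobinostat ones. The difference was -0.11 (SE 0.14, adjusted p = 0.509, limma), with a 95% interval of -0.44 to 0.21. It was just above 0 with quantile normalization (0.0031), with scaling to read totals (0.0060) and without vehicle library 4 (0.014).

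The apoptosome genes were both higher. Casp9, the initiator caspase of this pathway, was at 5.72, 5.78, 5.76 and 5.65 log2 CPM with panobinostat and at 4.97, 5.03, 4.52 and 4.94 with vehicle. The panobinostat libraries differed little among themselves (SD 0.06) and all lay above the vehicle libraries. The difference was 0.87 (SE 0.13, 95% interval 0.58 to 1.15, adjusted p = 3.03e-04, limma), from counts of 983 to 1176 in panobinostat libraries and 517 to 707 in vehicle libraries. The pancreas genes Cela2a and Ctrc on the opposite strand each share 94 bases of exon with Casp9. Cela2a held 4, 975, 6 and 7469 reads in panobinostat libraries 1 to 4 and 2 to 6 with vehicle. The Casp9 level was 5.72 and 5.76 log2 CPM in panobinostat libraries 1 and 3, and 5.78 and 5.65 in libraries 2 and 4. The part of opposite-strand reads in the Casp9 counts was not tested.

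Apaf1, the scaffold of the apoptosome, measured 6.29, 6.15, 6.08 and 6.00 log2 CPM with panobinostat and 5.76, 5.26, 5.30 and 5.34 with vehicle. The groups were apart, with vehicle library 1 nearest to the panobinostat values. The difference was 0.72 (SE 0.13, 95% interval 0.42 to 1.01, adjusted p = 0.00109, limma) and ran from 0.55 to 0.84 over the alternatives. In a test against a 1.5-fold change Casp9 (adjusted p = 0.0782, limma), Apaf1 (0.373) and Bcl2l1 (0.327) made no call.

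Xiap, which encodes an inhibitor of caspase-9 and of caspases downstream of it, went the other way. It measured 6.01, 5.98, 5.86 and 6.07 log2 CPM with panobinostat and 6.68, 6.40, 6.55 and 6.02 with vehicle. Vehicle library 4 lay among the panobinostat libraries, while the other vehicle libraries were higher. The difference was -0.43 (SE 0.14, 95% interval -0.75 to -0.12, adjusted p = 0.0219, limma). The call was lost without vehicle library 1 or 3 or panobinostat library 3 (adjusted p from 0.0535 to 0.0639, limma), with quantile normalization (-0.31), with scaling to read totals (-0.31) and without panobinostat libraries 3 and 4 together (-0.42, adjusted p = 0.114).

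**Figure D2:**
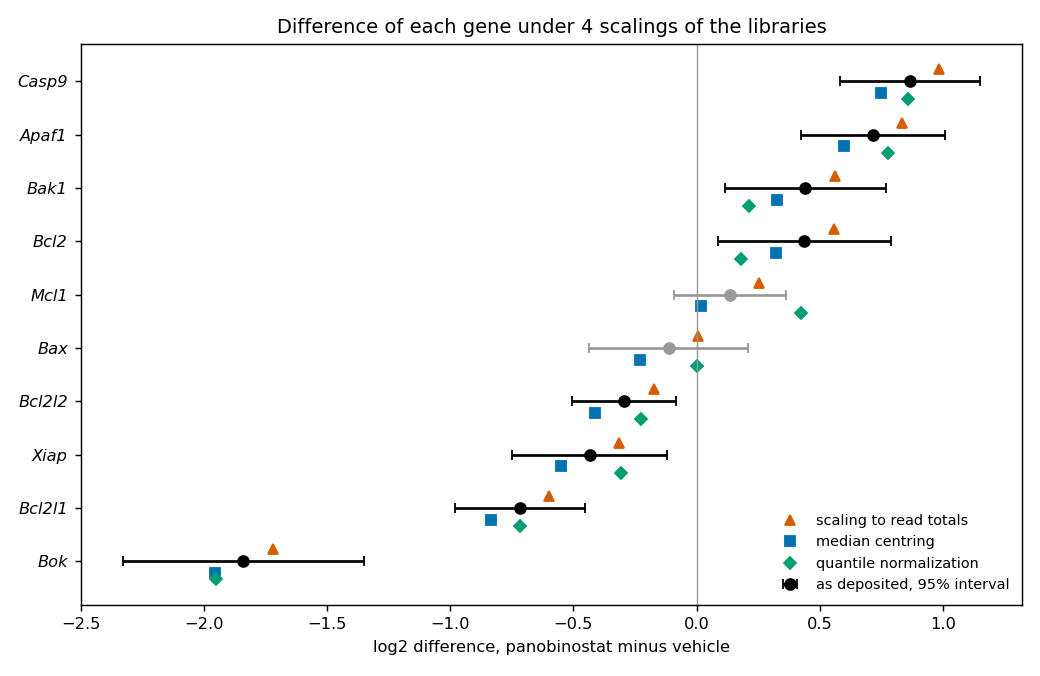
Log2 difference of each gene, panobinostat minus vehicle, with the 95% interval of the limma fit (black, or grey where there was no call) and the differences after scaling to read totals, median centring and quantile normalization. Bok, Bcl2l1, Apaf1 and Casp9 stay on their side of 0 under each scaling drawn. Bax runs from -0.23 with median centring to 0.0060 with read totals, and Mcl1 reaches 0.42 with quantile normalization.

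Levels can be set against each other only per length, here as CPM per kb of annotated exon. With panobinostat Mcl1 was at 56.8 ± 4.2 and Bax at 41.9 ± 2.8 (SD, n = 4), and the other genes followed well below. Bcl2l2 stood at 11.2 ± 0.27, Casp9 at 10.2 ± 0.42, Bak1 at 9.27 ± 1.16, Bok at 8.96 ± 2.15, Apaf1 at 7.78 ± 0.67, Bcl2l1 at 7.18 ± 0.46, Xiap at 6.67 ± 0.41 and Bcl2 at 2.24 ± 0.33 CPM per kb. The neighbours from Casp9 down to Xiap overlapped in their ranges over libraries, while Mcl1, Bax and Bcl2 stood clear of their neighbours, and Bcl2l2 of Casp9. With vehicle Mcl1 (51.8 ± 5.1), Bax (46.0 ± 9.6) and Bok (32.3 ± 8.6 CPM per kb) led. The ranges of neighbours in this order overlapped, but those of Mcl1 and Bok did not. A gap below Bok separated them from Bcl2l2 (13.8 ± 1.3), Bcl2l1 (11.9 ± 1.6), Xiap (9.12 ± 1.69), Bak1 (6.82 ± 0.83), Casp9 (5.65 ± 0.84) and Apaf1 (4.77 ± 0.82 CPM per kb), each of which overlapped its neighbour. Bcl2 was lowest at 1.65 ± 0.22 CPM per kb. In the order of levels Bok ranked 6 of 10 with panobinostat and 3 of 10 with vehicle, and Casp9 ranked 4 and 8.

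Summed per length, guardian levels overlapped between groups, and effector levels, with Bok among them, did not. The 4 guardians summed to 81.9, 79.0, 77.8 and 71.0 CPM per kb in panobinostat libraries 1 to 4 and to 83.3, 79.9, 70.0 and 83.2 in vehicle libraries 1 to 4. The 3 effectors summed to 61.8, 59.7, 64.1 and 54.99 CPM per kb with panobinostat and to 75.0, 98.3, 68.8 and 98.2 with vehicle, and every panobinostat sum was below every vehicle sum. Guardian levels over effector levels, Bok included, came to 1.29 ± 0.05 with panobinostat and 0.947 ± 0.141 with vehicle (mean ± SD, n = 4). Of the effectors in that ratio, Bok stood at 8.96 ± 2.15 CPM per kb with panobinostat and 32.3 ± 8.6 with vehicle. Bax stood at 41.9 ± 2.8 and 46.0 ± 9.6, and Bak1 at 9.27 ± 1.16 and 6.82 ± 0.83. The ratio is thus no measure of guardians against BAX and BAK alone. Bok made up 14.9% ± 3.2 of the effector sum with panobinostat and 37.7% ± 5.1 with vehicle. Bax made up 69.8% ± 3.5 and 54.1% ± 5.3, and Bak1 15.4% ± 1.1 and 8.21% ± 1.82. Within the guardians Mcl1 held 73.3% ± 1.1 of the sum with panobinostat and 65.5% ± 2.7 with vehicle, and Bcl2l1 9.27% ± 0.36 and 15.0% ± 1.5. Mcl1 stood at 7.92 ± 0.40 times the Bcl2l1 level with panobinostat and 4.41 ± 0.58 times with vehicle. Apaf1 stood at 1.17 ± 0.12 times the Xiap level with panobinostat and 0.531 ± 0.095 times with vehicle, and Casp9 at 1.54 ± 0.15 and 0.641 ± 0.181 times. These sums and ratios describe transcripts, weigh every gene alike per length and were not tested, since the genes were chosen with results known. With the longest annotated transcript as the length, guardians over effectors came to 1.06 ± 0.05 and 0.821 ± 0.120, and Bax passed Mcl1 in both groups. By that length Mcl1 stood at 4.44 ± 0.22 times the Bcl2l1 level with panobinostat and 2.47 ± 0.33 times with vehicle, Bcl2l1 held 15.0% and 23.2% of the guardian sum, and its rank with panobinostat was 5 in place of 8.

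**Figure D3:**
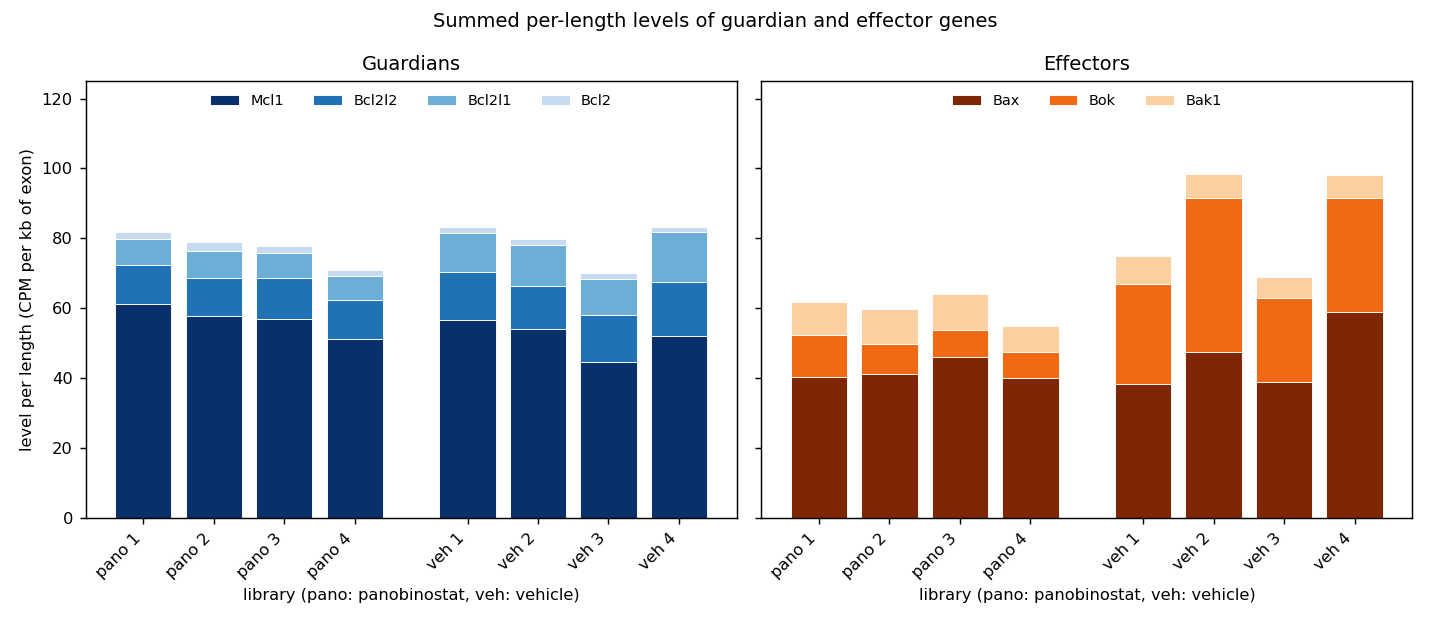
Stacked per-length levels (CPM per kb of exon) of the guardian genes (left) and effector genes (right) in each library, with panobinostat libraries left of vehicle libraries. Guardian sums overlap between groups, while the Bok share of the effector sum is 12.3% to 19.5% with panobinostat and 33.2% to 44.7% with vehicle.

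Around these genes the rest of the pathway moved both ways. Of 8 BH3-only genes, whose products bind the guardians, 4 rose and 2 fell, beside 31.2% higher and 32.4% lower (63.7% called) among all tested genes, and the median log2 difference was 0.77 against -0.02 for all tested genes. The count of falls was 1 without panobinostat libraries 3 and 4, where Bbc3 made no call. Pmaip1, which encodes the MCL1-binding protein NOXA, averaged 3.66 ± 0.21 log2 CPM with panobinostat and 0.44 ± 0.52 with vehicle (SD, n = 4). Hrk, which encodes Harakiri, a neuronal binder of BCL2 and BCL-XL, averaged 4.86 ± 0.16 and 7.09 ± 0.20. The other genes that rose were Bmf, Bik and Bcl2l11 (BIM), and Bbc3 (PUMA) fell, while Bid (0.09) and Bad (0.33) made no call. With values for 4 of 8 further BCL2 relatives, 2 rose and 1 fell (median 0.92). Bcl2l13, which encodes a mitophagy receptor, fell by 0.86 (SE 0.10) to 6.29 ± 0.04 log2 CPM with panobinostat, against 7.15 ± 0.17 with vehicle. Bcl2a1b, of a guardian cluster expressed in blood cells, rose by 1.90 (SE 0.27), in libraries with macrophage markers at 3142 to 5600 CPM with panobinostat and 668 to 1298 CPM with vehicle. Its cluster holds near-identical copies, so its reads are uncertain, and the part of macrophages was not tested.

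Downstream of the apoptosome, the caspase gene Casp6 averaged 4.00 ± 0.16 log2 CPM with panobinostat and 2.12 ± 0.23 with vehicle, a difference of 1.88 (SE 0.17). Of the partners of DNA cleavage, Dffb, which encodes the caspase-activated DNase, fell by 1.46 (SE 0.19). Its inhibitor gene Dffa rose by 0.41 (SE 0.14), with overlapping groups. Dffa kept that call in 11 of 22 alternatives and lost it with both ways of centring, without panobinostat libraries 3 and 4 together and without 6 of the 8 libraries singly.

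Of 8 genes for factors released from mitochondria and for channels of the outer membrane, 2 rose and 2 fell, beside 63.7% called among all tested genes, with a median of 0.04. Leaving out single libraries gave 1 to 3 genes higher and 0 to 3 lower, and none was higher with either way of centring or without panobinostat libraries 3 and 4. Aifm1 (apoptosis-inducing factor) was higher by 0.45 (SE 0.13), a call lost with median centring (0.33), with trimmed mean centring (0.28) and without panobinostat libraries 3 and 4 (0.33, adjusted p = 0.150, limma). The channel gene Vdac3 fell by 0.41 (SE 0.13), a call lost with quantile normalization (-0.22), without panobinostat library 2 (adjusted p = 0.0526, limma) and without panobinostat libraries 3 and 4 (-0.39). Cycs, the cytochrome c gene, did not pass (0.31, SE 0.14, adjusted p = 0.0718, limma), and Diablo, whose product frees caspases from XIAP, rose by 0.26 (SE 0.09) but kept its call in 11 of 22 alternatives. Of 9 genes for other IAP proteins and IAP antagonists, 3 rose and 3 fell (median 0.37), beside 63.7% called among all tested genes. Leaving out single libraries gave 3 to 5 higher, with 5 without vehicle library 1, and 1 to 3 lower, with 1 lower without vehicle library 1 or 2 or panobinostat library 1, 3 or 4. Birc5 (survivin, also a mitotic protein) averaged 6.02 ± 0.16 log2 CPM with panobinostat and 7.19 ± 0.17 with vehicle. The 3 that rose were Naip2 (2.69, SE 0.27), Naip5 and Naip6, close paralogs known as sensors in macrophages, whose reads may be shared. Macrophage markers were higher in the same libraries, as given above, and their part was not tested.

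Genes that control turnover or anchoring of BCL2 proteins also moved both ways. Huwe1, whose product marks MCL1 for degradation in human cells, averaged 8.89 ± 0.10 log2 CPM with panobinostat and 9.77 ± 0.10 with vehicle, a difference of -0.88 (SE 0.10). Tmbim6 (BAX inhibitor 1, an endoplasmic reticulum protein) averaged 8.50 ± 0.13 and 7.12 ± 0.19, a difference of 1.39 (SE 0.12). Usp9x, which removes ubiquitin from MCL1 in human cells, made no call (-0.14, SE 0.12).

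**Figure D4:**
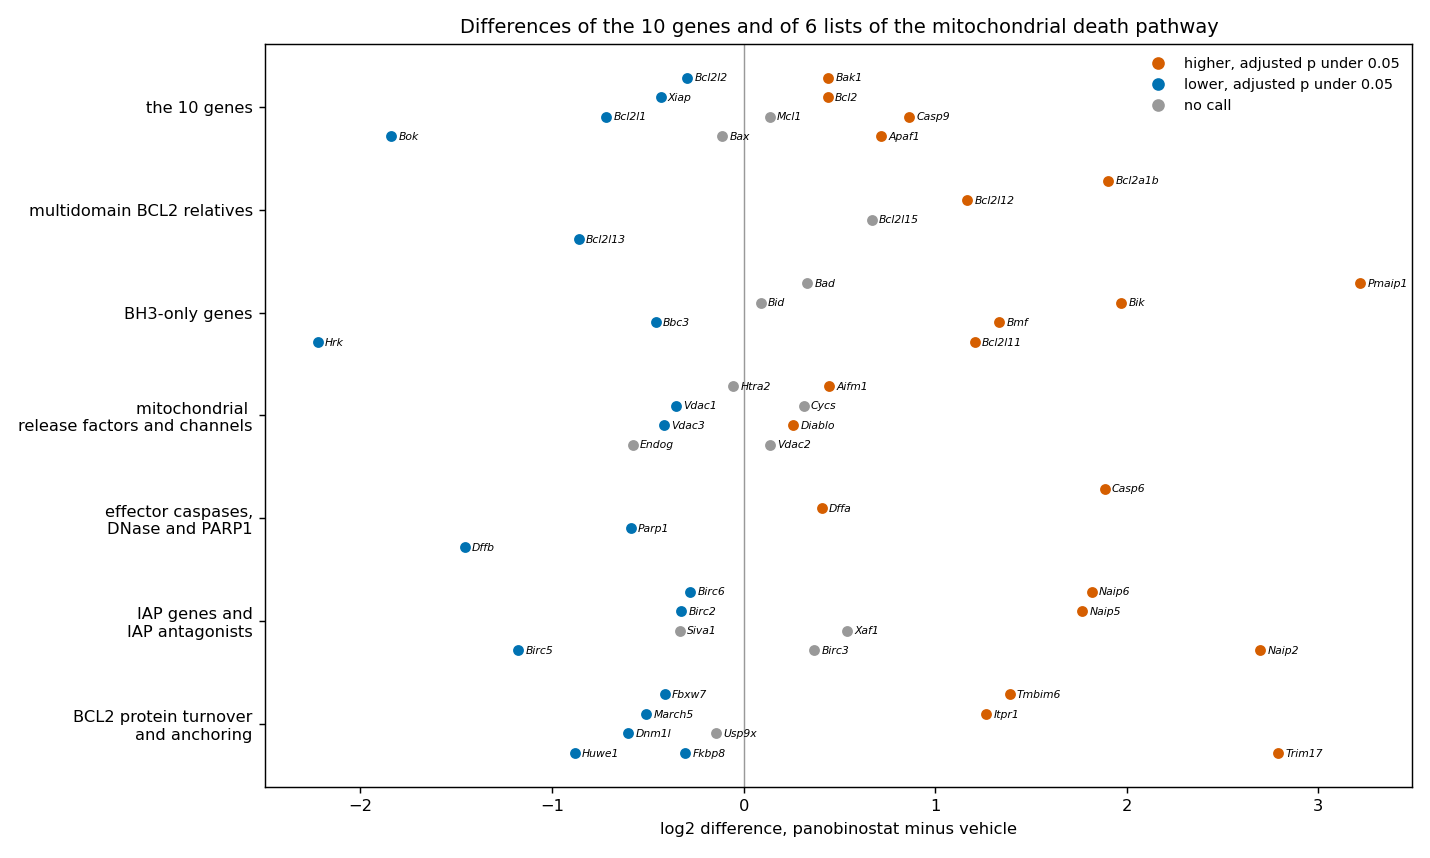
Log2 difference, panobinostat minus vehicle, of the 10 genes and of genes of 6 lists of the same pathway, coloured by call in limma (adjusted p under 0.05). The 10 genes span -1.84 (Bok) to 0.87 (Casp9), and genes of the BH3-only list span -2.22 (Hrk) to 3.22 (Pmaip1).

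Read against the choice of fit, the 10 genes fell into those that held and those that did not. Bok kept its call in all 22 alternatives, and Bcl2l1, Apaf1 and Casp9 in 21. At an adjusted p under 0.01 these were the 4 genes called, of 10, with 49.8% of all tested genes called. They were also the 4 called without panobinostat libraries 3 and 4, where 48.4% of tested genes were. Bcl2l2 kept its call in 16 of 22 alternatives, Xiap in 14, Bak1 in 12 and Bcl2 in 10.

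**Figure D5:**
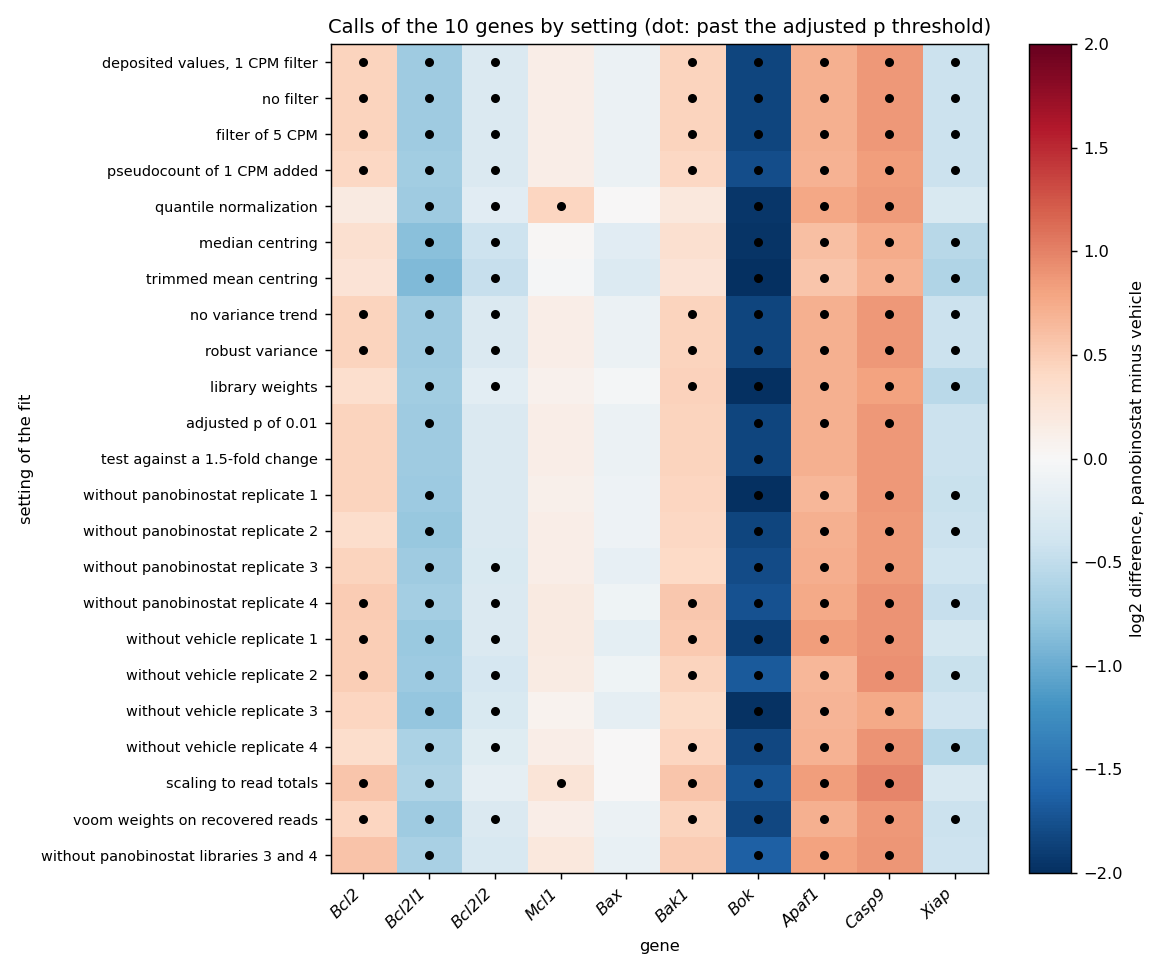
Log2 difference of each gene (columns, colour scale) under each setting of the fit (rows), with a dot where the adjusted p passed the threshold. Dots fill the columns of Bok in every row and of Bcl2l1, Apaf1 and Casp9 in all but the test against a 1.5-fold change, and come and go for Bcl2, Bcl2l2, Bak1 and Xiap.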

How the data were processed

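The authors deposited 1 log2 value per gene and library. Libraries came from a TruSeq kit, per the labels, and mm10, limma, HTSeq, TopHat2 and CASAVA 1.8.2 stand, without roles, in the submitters' processing notes. Strand setting, annotation, filter and normalization were not given in the sources used here. The deposited log2 values have the form of log2 CPM with 0.5 reads added, since 100% of them returned whole reads (tolerance 0.001 read). GENCODE M21 gave symbols for 17228 of 17488 identifiers, and lengths and coordinates.

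Of all genes, 16157 had 1 CPM or more in 4 or more libraries and entered limma 3.58.1 (R 4.3.3), with a variance trend, 2 groups, two-sided tests, Benjamini-Hochberg adjustment over all of them and a threshold of 0.05. The fit was also run on simulated counts, as a check of the code. Few genes were changed there, evenly in both directions and with no shift of scaling, unlike these data. That run therefore says nothing about how reliable the calls here are. The 10 genes, 6 pathway lists and 13 marker lists were chosen with earlier results of these data known. By rule, the 2 genes of each pathway list with the smallest adjusted p were named; the others named were chosen after their values were seen. Some genes of the caspase and turnover lists, and those lists' counts, are not reported here. Replicate numbers only name samples. The labels hold no batch. The 22 alternatives changed filters, pseudocount, scaling, variance settings and thresholds, or left out libraries. Of these, 3 were added after seeing the data: voom weighting of recovered reads, scaling by read totals, and dropping panobinostat libraries 3 and 4, those with most liver marker reads.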

Additional observations from a re-analysis of the deposited data

Results flagged for a closer look

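In 44 groups of 4 libraries (the 10 genes and 12 pathway genes chosen by rule), 4 held a library far from the others, with a gap to its neighbour past Dixon's 95% critical value, where chance flags about 1 group in 20. Apaf1 was high in vehicle library 1 (5.76 log2 CPM), and its difference without that library was 0.83. Casp9 was low in vehicle library 3 (4.52 log2 CPM), and its difference without that library was 0.75. Naip2 was low in panobinostat library 4 (4.17 log2 CPM), and Bcl2l13 was high in vehicle library 4 (7.40 log2 CPM). All 4 genes kept their calls without the library named.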

How the results depend on the processing

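Direction held for 8 of the 10 genes in all 22 alternatives. The exceptions were Bax, above 0 with quantile normalization (0.0031), scaling to read totals (0.0060) and without vehicle library 4 (0.014), and Mcl1, below 0 with trimmed mean centring (-0.031). Scaling to read totals moved the median of all genes by 0.12 on the log2 scale, median centring by -0.12, trimmed mean centring by -0.17 and quantile normalization by -0.15. Calls were lost under scalings by Bcl2 (quantile 0.18, median 0.32, trimmed mean 0.27) and Bak1 (quantile 0.22, median 0.32, trimmed mean 0.28). Bcl2 also lost its call with library weights (0.33), which leave the scaling unchanged. Scalings ended the calls of Xiap (quantile and read totals, both -0.31) and Bcl2l2 (read totals, -0.17), and Mcl1 gained one (quantile 0.42, read totals 0.25). At an adjusted p of 0.01, Bcl2 (0.44), Bak1 (0.44), Bcl2l2 (-0.29) and Xiap (-0.43) lost theirs, as they did, with Bcl2l1 (-0.72), Apaf1 (0.72) and Casp9 (0.87), against a 1.5-fold change. That test has a higher bar by construction. Without panobinostat libraries 3 and 4 those 4 genes lost their calls (Bcl2 0.57, Bak1 0.51, Bcl2l2 -0.32, Xiap -0.42), with fewer samples. Leaving out single libraries gave 0.35 to 0.51 for Bcl2, 0.38 to 0.54 for Bak1, -0.34 to -0.23 for Bcl2l2, -0.56 to -0.35 for Xiap and -0.19 to 0.014 for Bax.

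The count of higher genes, 4 of 10, was 2 with either centring, at an adjusted p of 0.01 and without panobinostat libraries 3 and 4, 0 against a 1.5-fold change and 2 to 4 without single libraries. The count of lower genes, also 4, was 2 at 0.01, with read totals and without panobinostat libraries 3 and 4, 1 against a 1.5-fold change and 3 to 4 without single libraries. Over all genes 10289 were called, 4988 against a 1.5-fold change and 9175 to 10467 without single libraries. Beyond construction, causes were not tested. No paired analysis was possible because the labels match no animal of one group to an animal of the other. The 10 genes had at least 262 reads in every library, and what limited precision was not tested.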

Other observations

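As a description with no test, the gene most like another in its log2 values over the 8 libraries (Pearson's r, which carries the difference between groups) was Bok for Bcl2l1 (0.94), Bcl2l1 for Bcl2l2 (0.91), Apaf1 for Bak1 (0.91) and for Casp9 (0.90), and Bak1 for Bcl2 (0.85) and Mcl1 (0.84). Bax was least like the rest, with 0.54 to its nearest, Bcl2l1. Among all tested genes outside the lists, the highest values were those of Snhg20 (0.99) and Bach1 (0.97) with Bcl2, Map2k5 (0.995) and Zfp575 (0.993) with Bcl2l1, and Myocd (0.98) and Antxr1 (0.97) with Mcl1, each over 8 libraries that share the 2 groups and their depth.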
